A study of Mus musculus with 33 samples.

Results

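EACBE, the CTCF-binding element just downstream of the Tcra enhancer Eα, was deleted in mice, and the contacts of the proximal V region were read from a bait upstream of the Vα gene Trav17 (Trav17–CBE2). Of the 33 libraries of the series, 6 belong to this comparison: 3 of EACBE-/- thymocytes (genotype label CBE-/-Rag1-/-) and 3 of WT thymocytes (CBE+/+Rag1-/-), chosen by their titles. Both groups are DP thymocytes of Rag1-/- mice on a C57BL/6 background, so no antigen receptor locus had recombined in either. The mice were 3 weeks old, received an anti-CD3 antibody that drives Rag-deficient thymocytes to the DP stage, and gave their thymi 10 days later. Fixation was in 1% formaldehyde, and digestion used 200 units of MboI. A read runs from the bait through the next ligated fragments, and its first 2 fragments after the bait report a three-way contact. The study calls its replicates biological, but the labels do not say whether the 3 libraries of a group came from different mice. Every p-value below therefore measures the spread between libraries, which may be technical. Contact data hold no marker transcripts, so the cell type rests on the labels.

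In the Tcra–Tcrd locus a V segment far upstream must meet a J segment far downstream before it can be joined. Eα drives transcription from the TEA promoter (TEAp) at the start of the J array, and sites bound by CTCF hold cohesin as it extrudes chromatin and so set where loops end. INT1 and INT2 are CTCF sites between the V genes and the Tcrd gene segments. EACBE lies between Eα and the housekeeping gene Dad1, at the downstream edge of the locus.

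The reads were first searched for a fragment present in every WT library and absent from every EACBE-/- library. A single MboI fragment of the 59 from the last Jα segments into Dad1, chr14:54228261-54228414 in mm10 (154 bp, intergenic, 3′ of Trac), had no read in any of the 9 EACBE-/- libraries made with the Trav17, TEAp and Eα baits. It had 103 to 602 reads on chromosome 14 in the 3 WT libraries of the Trav17 bait, 804 to 1136 in those of TEAp and 419 to 855 in those of Eα. It was selected by this pattern after its values were seen, so its agreement with the genotype labels was fixed by the search. The exact coordinates of the deletion were not given in the sources used, and this fragment is called the missing fragment below. A planned search for the CTCF core motif (CCA, 2 free bases, AG, 2 free bases, GGC) on both strands gave no match in it, while 1.45% of the 1384 MboI fragments of the region held one. The sequences shown are those that carry this comparison: the fragment without reads in EACBE-/- libraries, the end of the bait from which every read starts, and the CTCF core match nearest to that end. In the first and the third the capitals mark AGGGGGC, a shorter run that was searched after the data were seen and that 4.12% of the region's MboI fragments held on either strand. In the bait the capitals mark the MboI site. The missing fragment and the match beside Trav17 share the run AGGGGGCACTG.
Fragment without reads in EACBE-/- cells, chr14:54228261-54228414, plus strand: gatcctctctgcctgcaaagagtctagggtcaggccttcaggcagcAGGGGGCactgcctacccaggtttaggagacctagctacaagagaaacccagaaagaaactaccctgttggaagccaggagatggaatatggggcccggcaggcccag
Bait end, chr14:53804241-53804316, minus strand: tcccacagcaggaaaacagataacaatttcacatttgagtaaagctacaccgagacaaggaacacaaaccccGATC
CTCF core match upstream of Trav17, chr14:53806372-53806443, plus strand: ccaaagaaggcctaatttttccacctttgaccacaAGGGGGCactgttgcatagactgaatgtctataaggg

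The bait fragment spans chr14:53804241-53805068, upstream of Trav17 (chr14:53806639-53807115), and reads leave it through the MboI site at its lower coordinate. The region analysed was chr14:53740001-54300000. Libraries held 25331 to 137526 reads on chromosome 14 and 12509 to 71922 with both fragments in the region. Many reads repeat a pair of aligned fragments: WT replicate 3 had 10.1 reads per distinct pair on chromosome 14 against 1.74 to 2.45 in the other 5 libraries, and the region held 4941 to 7291 distinct pairs in each. Results are therefore also given with each distinct pair counted once. Reads are amplified molecules, so intervals and floors cover counting error alone.

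The missing fragment was a frequent partner of the bait in WT cells. It was in 70, 88 and 428 region reads of the WT libraries, which is 0.443%, 0.527% and 0.595% of them. The EACBE-/- libraries had 0 of 14264, 13114 and 12509 reads, which allows shares of up to 0.0210%, 0.0229% and 0.0240%. Against a floor of 3 counts over the whole group, the WT mean was at least 69.4-fold higher, for a fragment selected by its lack of EACBE-/- reads. In WT reads with this fragment, the other fragment lay in the proximal V region (chr14:53810001-54055000) in 35.7%, 34.1% and 19.9% and downstream of Eα, on the Dad1 side, in 27.1%, 20.5% and 27.3%. INTs were its partner in 0, 0 and 36 reads of the WT libraries.

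Of the 8 MboI fragments around the missing one, 2 were lower in every EACBE-/- library and 6 overlapped with all reads. With distinct pairs the fragment right before the missing one was lower too (means of 2.47 per 1000 in WT and 0.666 in EACBE-/-). The share over all MboI fragments was not counted. Of the 5 kb bins of the region, 16.7% were lower without overlap, but a bin pools several MboI fragments, so this is no background for single ones. The MboI fragment chr14:54227255-54227584, which follows the fragment of the study's Eα bait and was singled out after its values were seen, held 5.70, 4.26 and 6.47 of every 1000 region reads in WT and 2.38, 2.52 and 1.84 in EACBE-/- libraries. All 3 EACBE-/- libraries lay below all WT libraries, and the ratio of the means was 2.44 (two-sided exact permutation over libraries, p = 0.1, which is the smallest value that 3 against 3 allows). The fragment right after the missing one held 0.190, 1.98 and 0.932 of every 1000 reads in WT and 0.981, 0.763 and 0.480 in EACBE-/-, and there the groups overlapped.

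**Figure D1:**
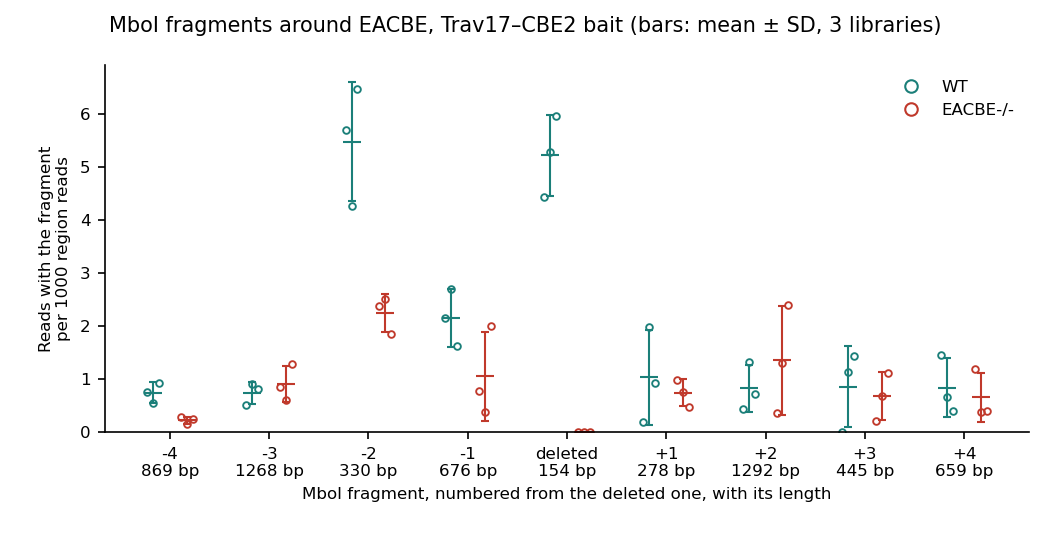
Reads with each of 9 neighbouring MboI fragments (x axis, numbered from the missing fragment, with lengths) per 1000 region reads (y axis), for WT and EACBE-/- libraries of the Trav17–CBE2 bait. Circles are libraries and bars are mean ± SD over 3. The missing fragment is at 0 in all 3 EACBE-/- libraries, and the fragment at -2 has means of 5.47 in WT and 2.25 in EACBE-/- libraries.

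Along the region, the number of reads with a fragment in each 5 kb bin was compared between genotypes, relative to the region reads of each library. Without EACBE, 14 of 108 bins rose (13%) and 8 fell (7.41%) by edgeR's quasi-likelihood test at a Benjamini-Hochberg adjusted p under 0.05. Of the bins that rose, 6 lie downstream of Eα, most of them over Dad1 and Abhd4, and 7 of the 8 that fell lie between the INTs and Eα. The remaining bin that fell held Trdv2-1. From the INTs to Eα the log2 fold change was below 0 in 29 of 34 bins (median -0.31), against 53 of all 108 (median 0.00). In the downstream flank it was above 0 in 12 of 13 bins (median 0.72).

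These counts depend on the scale and on the depth. On the scale of all chromosome 14 reads the median of all bins moved to -0.17, and 6 bins rose and 15 fell. With distinct pairs 11 bins rose and 3 fell, of which 9 bins were also called with all reads. Without WT replicate 3, 16 bins passed, 14 of them the same. At an unadjusted p under 0.001, the threshold in the study's methods, 9 bins (8.33%) passed. The groups did not overlap in 19 bins that were higher (17.6%) and 18 that were lower (16.7%) in EACBE-/- libraries.

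**Figure D2:**
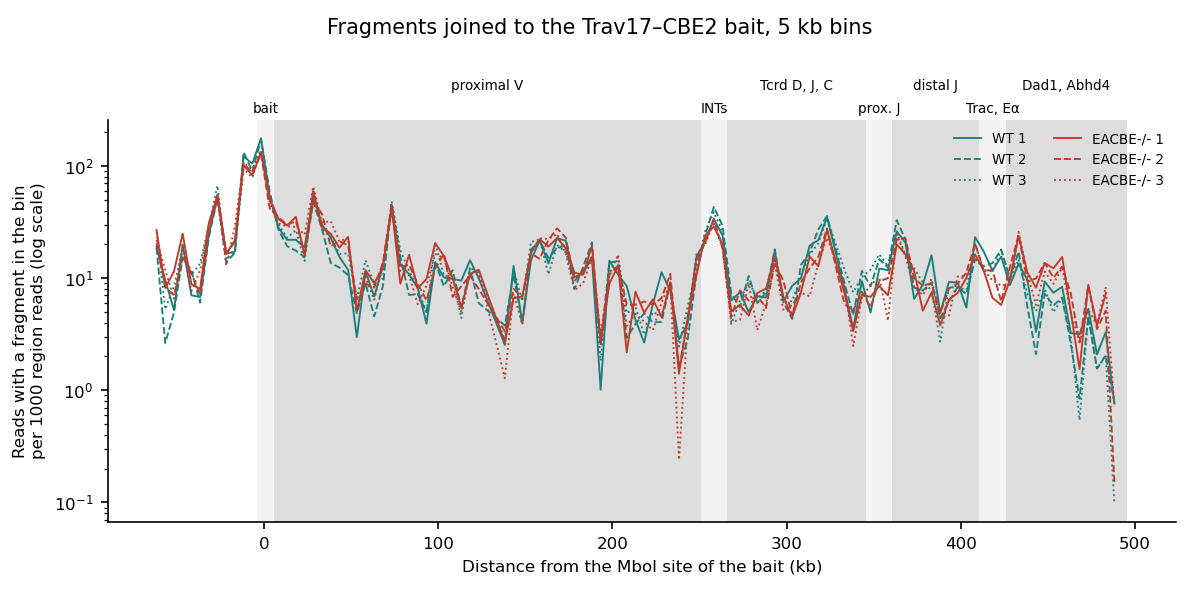
Reads with a fragment in each 5 kb bin per 1000 region reads (y axis, log scale) against the distance from the MboI site of the bait (x axis, kb), 1 line per library. Shaded bands name the segments. The 6 profiles share their peaks, and all EACBE-/- lines lie above all WT lines in 8 of the 13 bins of the downstream flank and below them at Eα, where the bin means are 6.83 and 17.1.

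**Figure D3:**
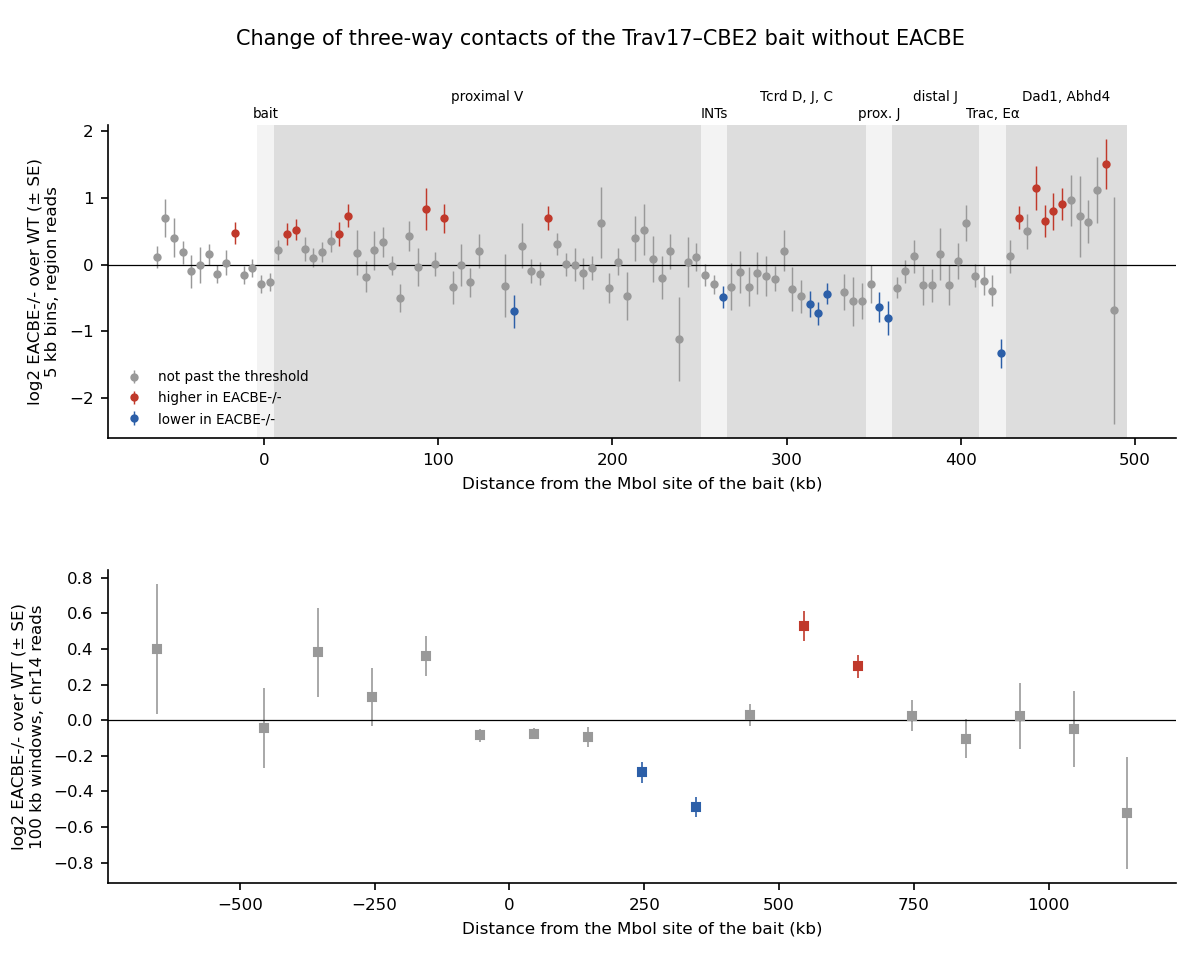
Top, log2 fold change of EACBE-/- over WT (y axis, ± SE) of each 5 kb bin against distance from the bait (x axis, kb). Bottom, the same for 100 kb windows around the region with a mean of at least 1 per 1000 chromosome 14 reads. Coloured points passed the adjusted p. The bins that fell are mostly between the INTs and Eα and end with the Eα bin at -1.33.

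At the bait itself the Trav17 bin, which holds the V gene next to the bait, had 52.1, 58.7 and 55.2 of every 1000 region reads in WT and 50.7, 41.5 and 46.4 in EACBE-/- libraries. The EACBE-/- libraries were the lower 3, but the bin did not pass (log2 fold change -0.26 ± 0.14 SE, adjusted p = 0.188, edgeR). Upstream of the bait 1 of 12 bins rose, chr14:53785001-53790000, by 0.47 ± 0.17 on the log2 scale (edgeR adjusted p = 0.0327), and with distinct pairs its adjusted p was 0.137. It passed in 6 of the 17 alternatives at 5 kb.

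Of the V gene bins downstream of the bait, that of Trav19 rose, that of Trdv2-1 fell, and the others did not pass. The bin of Trav19, a functional Vα segment, held 15.4, 12.4 and 16.4 of every 1000 region reads in WT and 18.6, 21.4 and 21.2 in EACBE-/-. There was no overlap, and the log2 fold change was 0.46 ± 0.18 (SE, edgeR adjusted p = 0.0477), but it was 0.24 with distinct pairs, where the adjusted p was 0.330. The Trav19 bin passed in 2 of the 17 alternatives at 5 kb. The next bin, chr14:53850001-53855000, which holds no annotated gene, went from 11.8, 10.6 and 16.6 to 23.3, 19.5 and 22.9. Its log2 fold change of 0.73 ± 0.18 (edgeR adjusted p = 0.00121) passed in all 17 alternatives at 5 kb. Between Trav17 and Trav18 the gene-free bins chr14:53815001-53820000 and chr14:53820001-53825000 rose by 0.46 and 0.53 on the log2 scale (edgeR adjusted p = 0.0296 and 0.01), and with distinct pairs neither passed (adjusted p = 0.135 for both).

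Trav18 is itself a strong partner of the bait, with 52.0, 47.8 and 61.8 of every 1000 region reads in WT. Its EACBE-/- values of 59.2, 49.6 and 65.3 overlapped these, and the log2 fold change was 0.10 ± 0.14 (edgeR adjusted p = 0.654). The bin of Trav21-dv12, a segment used by both α and δ chains, held 40.2, 46.5 and 48.4 in WT and 43.7, 44.5 and 45.6 in EACBE-/- libraries, with a log2 fold change of -0.02 ± 0.14. Within that bin the libraries of the groups overlapped with all reads, while with distinct pairs the EACBE-/- libraries were the lower 3 (43.2 against 38.2 of every 1000 as means).

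Of the Vδ genes, Trdv1 had 13.2, 15.5 and 17.7 of every 1000 region reads in WT and 8.90, 12.5 and 11.6 in EACBE-/-. Every EACBE-/- library was below every WT library, and the bin did not pass on the region scale (log2 fold change -0.50 ± 0.21, edgeR adjusted p = 0.0688) but did on the scale of chromosome 14 reads (adjusted p = 0.0149). Trdv2-1, singled out because its bin was called, went from 12.8, 10.8 and 11.9 to 6.59, 8.01 and 7.27 (log2 fold change -0.70 ± 0.25, edgeR adjusted p = 0.0327), and with distinct pairs the adjusted p was 0.0733. For Trdv2-2 the values were 21.6, 21.8 and 22.0 in WT and 22.2, 14.9 and 22.6 in EACBE-/-, which overlap, and with distinct pairs the EACBE-/- libraries were the lower 3 (means of 23.0 and 19.6). The bin of Trav23, a pseudogene at the far end of the V segments, had a mean of 19.3 in both groups.

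Between Trdv1 and Trav23, in the span of the noncoding gene Gm30392, 3 more bins rose. The bin chr14:53905001-53910000 went from 10.1, 8.45 and 10.5 of every 1000 region reads in WT to 15.7, 16.5 and 15.0 in EACBE-/- libraries (log2 fold change 0.69 ± 0.21, edgeR adjusted p = 0.0127). It passed with distinct pairs too (edgeR adjusted p = 0.0146), but not on the scale of chromosome 14 reads (adjusted p = 0.0524). Of the 17 alternatives at 5 kb it passed in 11. The bins chr14:53895001-53900000 and chr14:53965001-53970000 rose by 0.83 and 0.69 on the log2 scale with all reads (edgeR adjusted p = 0.0408 and 0.00235), and did not pass with distinct pairs (adjusted p = 0.581 and 0.260). The former passed in 4 and the latter in 15 of the 17 alternatives.

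At the INTs, the window chr14:54055001-54070000 has 3 bins, all with a log2 fold change below 0. The last of them, in which the noncoding gene Gm30275 begins, held 24.0, 29.3 and 26.1 of every 1000 region reads in WT and 20.1, 18.4 and 18.3 in EACBE-/- libraries. It fell by 0.48 ± 0.16 on the log2 scale (edgeR adjusted p = 0.0286, and 0.0166 with distinct pairs). The middle bin, which has the most reads of the 3, had 33.6, 43.1 and 38.7 in WT and 28.7, 33.6 and 31.7 in EACBE-/-, and did not pass (log2 fold change -0.30 ± 0.15, edgeR adjusted p = 0.148). For the first bin the groups overlapped. The exact places of INT1 and INT2 within this window were not available, so no bin is assigned to either.

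In the Tcrd gene segments the clearest change was at Trdd2 and Trdj1, a D and a J segment of the δ chain in 1 bin. The values were 21.8, 27.2 and 20.4 of every 1000 region reads in WT and 12.8, 15.5 and 13.5 in EACBE-/- libraries. The highest EACBE-/- library was below the lowest WT library. The bin fell by 0.73 ± 0.18 on the log2 scale (edgeR adjusted p = 0.00121), passed with distinct pairs (adjusted p = 0.0146) and in all 17 alternatives at 5 kb. Both neighbouring bins fell as well, by 0.59 upstream and 0.43 downstream (edgeR adjusted p = 0.0263 and 0.0296), but not with distinct pairs (adjusted p = 0.135 and 0.0791). Trdc, the constant region of the δ chain, lies in a pair of bins with log2 fold changes of -0.55 ± 0.37 and -0.54 ± 0.27 that did not pass (edgeR adjusted p = 0.340 and 0.145).

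The TEAp bin, whose place is inferred from the study's drawings, held 4.94, 8.45 and 11.9 of every 1000 region reads in WT and 6.80, 5.49 and 8.71 in EACBE-/- libraries, with overlap (log2 fold change -0.29 ± 0.28, edgeR adjusted p = 0.506). The next bin, with Traj61 to Traj56, the J segments at which Tcra rearrangement starts, went from 12.2, 14.7 and 16.3 to 8.48, 9.38 and 10.2. It fell by 0.63 ± 0.22 on the log2 scale (edgeR adjusted p = 0.0296), and with distinct pairs the groups still did not overlap while the adjusted p was 0.0673. The following bin, with Traj55 to Traj53, fell by 0.80 ± 0.25 (edgeR adjusted p = 0.0158), and its adjusted p with distinct pairs was 0.135. None of the 10 bins of the distal J segments passed on the region scale. On the scale of chromosome 14 reads their first bin, with Traj52 to Traj48, had an edgeR adjusted p of 0.0178, and the Trav17 bin, the middle INT bin and the second Trdc bin also passed as lower (edgeR adjusted p = 0.0275, 0.0212 and 0.0275).

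The bin of Trac, the constant region of the α chain, did not pass (log2 fold change -0.39 ± 0.23, edgeR adjusted p = 0.258). The Eα bin next to it had the lowest log2 fold change of all bins when every read was counted. It held 15.6, 17.9 and 17.9 of every 1000 region reads in WT and 5.75, 6.18 and 8.55 in EACBE-/- libraries, a log2 fold change of -1.33 ± 0.22 (edgeR adjusted p = 6.62e-07). This bin contains the missing fragment, whose loss removes reads by itself. Without every read that holds that fragment, the log2 fold change was -0.81 and the edgeR adjusted p 0.0181, and a gene-free bin of few reads at chr14:54040001-54045000 had a lower value of -1.06 that did not pass.

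Downstream of Eα the change had the other sign. Dad1, a housekeeping gene that encodes a subunit of the oligosaccharyltransferase, spans 4 bins, and 3 of them rose. The first held 13.4, 17.2 and 14.7 of every 1000 region reads in WT and 23.8, 24.2 and 25.8 in EACBE-/- libraries. Its log2 fold change was 0.71 ± 0.17 (edgeR adjusted p = 0.00121), and it passed in all 17 alternatives at 5 kb. The third Dad1 bin went from 3.29, 2.10 and 5.07 to 8.20, 9.91 and 5.76 (log2 fold change 1.14 ± 0.33, edgeR adjusted p = 0.00799), but with distinct pairs its groups overlapped and the adjusted p was 0.147. The fourth, shared with the start of Abhd4, rose by 0.66 ± 0.24 (edgeR adjusted p = 0.0327), but did not pass on the scale of chromosome 14 reads (adjusted p = 0.116).

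Abhd4, which encodes a lipid hydrolase, follows Dad1. Its bin chr14:54260001-54265000 held 8.35, 6.71 and 6.62 of every 1000 region reads in WT and 15.4, 12.7 and 12.4 in EACBE-/- libraries, with no overlap (log2 fold change 0.91 ± 0.24, edgeR adjusted p = 0.00323, and 0.0146 with distinct pairs). The bin before it rose by 0.80 ± 0.28 (adjusted p = 0.0296, edgeR) and the bin after it, at 0.96 ± 0.38, did not pass (adjusted p = 0.0582). With distinct pairs this was exchanged, at an edgeR adjusted p of 0.0791 for the former and 0.0301 for the latter, and neither passed on the scale of chromosome 14 reads (adjusted p = 0.0856 and 0.116). The largest rise of all bins was at chr14:54285001-54290000, which holds no annotated gene and lies beyond the olfactory receptor gene Olfr49. There the values were 3.29, 2.04 and 2.06 in WT and 7.22, 5.11 and 8.31 in EACBE-/-, a 2.84-fold rise (SE 0.38 on the log2 scale, edgeR adjusted p = 0.0017). With distinct pairs 8 of the 13 bins of the downstream flank rose.

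Summed over segments, EACBE-/- libraries had lower shares at the bait and from the INTs to Eα, the distal J segments excepted, and higher shares in the near and middle V segments and on the Dad1 side. A total of 31 shares was compared by exact permutation tests over libraries, which can reach no p below 0.1, and 0.155 after adjustment over them. The groups did not overlap in 20 of the 31 (64.5%). The downstream flank (chr14:54230001-54300000) held 4.44%, 3.91% and 3.93% of region fragments in WT and 7.19%, 7.02% and 6.43% in EACBE-/- libraries. As a share of all chromosome 14 reads, the difference between the means was 1.11 percentage points in place of 2.79, still higher in EACBE-/-.

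The bait segment (chr14:53800001-53810000, with Trav17) held 12.7%, 13.3% and 10.8% in WT and 10.3%, 9.52% and 10.3% in EACBE-/- libraries, a difference of -2.20 percentage points, and its groups overlapped with distinct pairs. The Tcrd segments (chr14:54070001-54150000) held 10.4 ± 0.562% (SD, n = 3) in WT and 8.01 ± 0.414% in EACBE-/-. For the INTs the shares were 4.91 ± 0.616% and 3.94 ± 0.0999%, for the proximal J segments 1.87 ± 0.304% and 1.19 ± 0.0707%, and for Trac with Eα 2.39 ± 0.138% and 1.58 ± 0.199%. In each of these the EACBE-/- libraries were the lower 3, also with distinct pairs. The distal J segments, at 7.14 ± 0.265% and 6.68 ± 0.647%, overlapped.

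Shares of the V segments depended on their distance from the bait. The near V segment (chr14:53810001-53890000, with Trav18, Trav19, Trav21-dv12 and Trdv1) held 18.2%, 16.8% and 20.5% in WT and 21.8%, 21.8% and 23.0% in EACBE-/- libraries. All EACBE-/- libraries were higher, and with distinct pairs too. As a share of chromosome 14 reads the difference was 0.99 percentage points in place of 3.70. The middle V segment had a difference of 0.867 percentage points without overlap and the far V segment one of 0.018 with overlap, and both turned below 0 with distinct pairs (-0.041 and -0.058) and over chromosome 14 reads (-0.055 and -0.48). Upstream of the bait the shares were 21.3 ± 0.425% and 21.4 ± 0.580% and overlapped.

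**Figure D4:**
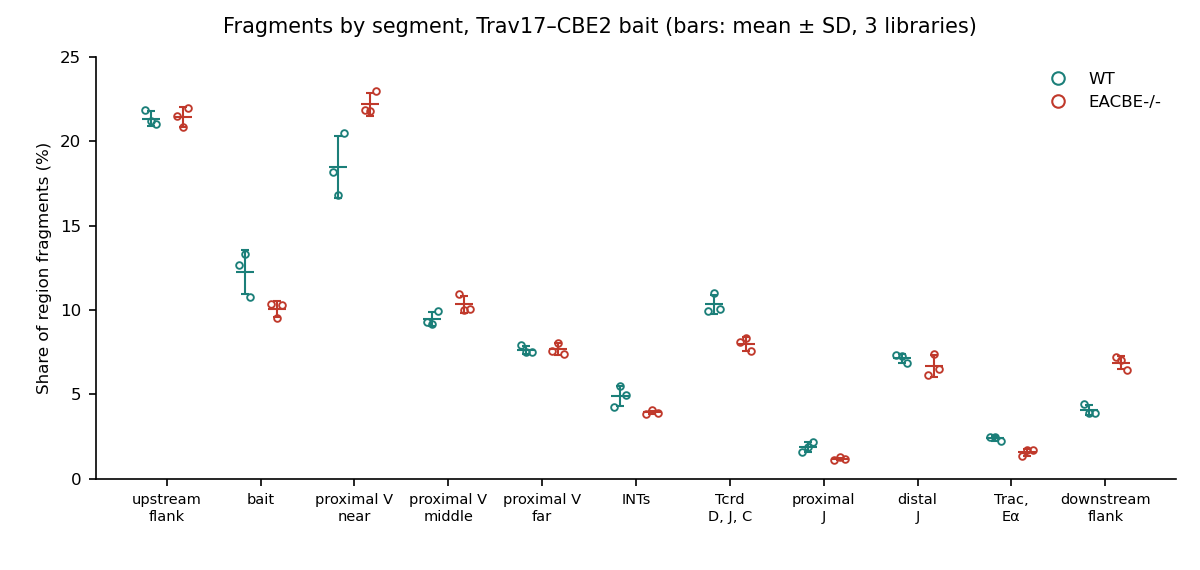
Share of region fragments (y axis, %) in each of 11 segments (x axis, from upstream to downstream) for the Trav17–CBE2 bait. Circles are libraries and bars are mean ± SD over 3. The INTs, the Tcrd segments, the proximal J segments and Trac with Eα are lower in every EACBE-/- library, and the near V segment and the downstream flank are higher.

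The pairs of fragments joined in 1 read followed the same division. Reads with both fragments in the proximal V region made up 21.3%, 21.4% and 23.8% of region reads in WT and 27.1%, 26.9% and 27.5% in EACBE-/- libraries. Reads that joined the V region with the INTs made up 2.35%, 2.24% and 2.32% in WT and 1.72%, 1.78% and 1.76% in EACBE-/-. For the V region with Trac and Eα the shares were 1.01%, 0.965% and 0.997% against 0.526%, 0.412% and 0.440%. Without the missing fragment the WT mean of that class was 0.844 ± 0.0490%, still above all EACBE-/- libraries. As shares of region reads, no class of these had groups that overlapped. The region itself held fewer of the chromosome 14 reads in EACBE-/- libraries (means of 47.3% against 53.1% in WT). On the scale of all chromosome 14 reads the rise of the first class is therefore smaller, and its groups overlap.

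Of the classes that joined the INTs with elements further downstream, those with the Tcrd segments and with Trac and Eα were lower in every EACBE-/- library. The INTs with the Tcrd segments had 1.68 ± 0.193% in WT and 1.14 ± 0.132% in EACBE-/- cells, and the INTs with Trac and Eα 0.297 ± 0.0489% and 0.134 ± 0.0697%, in both cases without overlap. With the proximal J segments (0.402 ± 0.291% and 0.258 ± 0.0716%), the distal J segments (0.710 ± 0.102% and 0.571 ± 0.123%) and the downstream flank (0.341 ± 0.112% and 0.506 ± 0.112%) the INT classes overlapped. The V region with the Tcrd segments (2.97 ± 0.171% and 2.79 ± 0.496%) and with the proximal J segments (0.623 ± 0.0762% and 0.542 ± 0.0857%) overlapped. Reads from the bait segment to any element up to Eα, the stripe that runs from the bait, made up 9.27 ± 0.288% and 7.54 ± 0.286%. Reads with both fragments between the bait and Eα made up 61.3 ± 1.16% and 58.0 ± 0.943%.

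Reads with a fragment in the downstream flank made up 6.49 ± 0.461% of region reads in WT and 10.3 ± 0.391% in EACBE-/- libraries, without overlap. A split by their other fragment was added after the data were seen and leaves out reads with the missing fragment. The other fragment was in the flank itself in 1.69 ± 0.140% and 3.41 ± 0.414% of region reads, and in the V region in 1.61 ± 0.0597% and 2.51 ± 0.205%. It was in the distal J segments in 0.279 ± 0.142% and 0.811 ± 0.0746%. It was in Trac with Eα in 0.183 ± 0.0342% and 0.293 ± 0.0496%. In these 4 classes every EACBE-/- library was above every WT library (exact two-sided permutation test, p = 0.1). As a share of the flank's partners, the V region had 23.6%, 25.4% and 27.4% in WT and 22.7%, 26.2% and 23.9% in EACBE-/- libraries, which overlap. With the segment upstream of the bait the shares of region reads were 1.22 ± 0.257% and 1.33 ± 0.329% and overlapped.

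The study examined how often the INTs join reads that link the bait with TEAp. Reads with a TEAp fragment numbered 78, 141 and 856 in WT and 97, 72 and 109 in EACBE-/- libraries. The INTs were their other fragment in 17.9%, 7.09% and 31.8% of them in WT and 28.9%, 11.1% and 9.17% in EACBE-/-. In reads without TEAp, the INTs were 4.26%, 5.53% and 4.82% of the fragments in WT and 3.79%, 4.04% and 3.89% in EACBE-/-. The log2 ratio of the former share to the latter (pseudocount 0.5) was above 0 in all 6 libraries, with means of 1.75 ± 1.19 (SD, n = 3) in WT and 1.93 ± 0.890 in EACBE-/-. The difference of 0.17 was within the spread (exact two-sided permutation test, p = 0.9). Libraries of 1 genotype differed by more than the genotypes did, and the difference turned to -0.49 without WT replicate 2 and to -0.34 without EACBE-/- replicate 1.

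Single pairs of 5 kb bins hold few reads, and 1 of 2318 rose (0.0431%) and 0 fell at the adjusted threshold of edgeR. At an unadjusted p under 0.05, 101 were higher and 63 lower. DESeq2 called 1 in each direction. The pair that rose is chr14:53820001-53825000 with itself, between Trav17 and Trav18, with 70, 65 and 432 reads in WT and 153, 137 and 138 in EACBE-/- libraries. In the depth of each library the EACBE-/- libraries were the higher 3 (log2 fold change 1.16 ± 0.27, edgeR adjusted p = 0.0377). With distinct pairs its adjusted p was 0.584. The groups did not overlap in 110 pairs that were higher (4.75%) and 108 that were lower (4.66%). At an unadjusted p under 0.001, 4 pairs passed (0.173%), of which 3 were higher and 1 lower.

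The lower one was the bin of Traj61 to Traj56 with itself. It had 30, 30 and 140 reads in WT and 5, 1 and 3 in EACBE-/- libraries. The log2 fold change was -3.05 ± 0.90 and the edgeR adjusted p 0.411, so this pair was not called. Of the other higher pairs, the third Dad1 bin with itself had 6, 4 and 52 reads in WT and 37, 45 and 17 in EACBE-/- (adjusted p = 0.411). The remaining pair, chr14:53785001-53790000 with the last INT bin, had 0 reads in all WT libraries and 0, 5 and 26 in the EACBE-/- libraries, so its groups overlapped. On simulated counts at these depths the test recovered 0.5% of 200 bin pairs changed by 1 on the log2 scale and 1.5% of 200 changed by 2. For 20 changed bins these values were 85% and 100%, and for 20 changed windows of 100 kb 0% and 15%.

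Across chromosome 14, reads were less often confined to the region without EACBE. Both fragments were in the region in 51.6%, 55.5% and 52.3% of chromosome 14 reads in WT and 46.6%, 45.8% and 49.4% in EACBE-/- libraries, and all EACBE-/- libraries were lower. Fragments within 1 Mb downstream of the region made up 15.1%, 13.8% and 14.2% in WT and 16.5%, 17.7% and 16.8% in EACBE-/-. Fragments over 5 Mb from the bait made up 13.6 ± 0.295% and 15.8 ± 1.05%, also without overlap. In the V genes upstream of the region the shares were 4.94 ± 0.629% and 5.67 ± 0.467% and overlapped.

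In windows of 100 kb, 2 of 770 rose (0.26%) and 2 fell (0.26%), or 4 in all (0.519%), by edgeR on the scale of all chromosome 14 reads, and the same number had an unadjusted p under 0.001 (0.519%). The groups did not overlap in 42 that were higher (5.45%) and 19 that were lower (2.47%). The window chr14:54100001-54200000, which holds Trdd2, Trdc, TEAp and most J segments, fell from 126, 140 and 135 of every 1000 chromosome 14 reads in WT to 92.8, 99.8 and 93.4 in EACBE-/- libraries (log2 fold change -0.49 ± 0.06, adjusted p = 6.1e-15, edgeR). The window before it, with Trdv3, the INTs and Trdv4, fell from 120, 130 and 127 to 102, 102 and 104 (-0.29 ± 0.06, adjusted p = 5.21e-05, edgeR). The window that holds Eα and Dad1, in which the 2 kinds of bin meet, had a log2 fold change of 0.03 ± 0.06.

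The windows that rose lie beyond the region. In chr14:54300001-54400000, with Oxa1l, an insertase of the inner mitochondrial membrane, and Slc7a7, an amino acid transporter, the values were 42.3, 37.1 and 46.2 in WT and 55.8, 60.7 and 64.8 in EACBE-/- (log2 fold change 0.53 ± 0.08, adjusted p = 1.24e-07, edgeR). The next, chr14:54400001-54500000, with Mrpl52, Mmp14, Lrp10 and Rem2, had 82.0, 77.8 and 78.6 in WT and 94.6, 105 and 94.6 in EACBE-/- (0.30 ± 0.06, adjusted p = 0.000469, edgeR). Both passed with distinct pairs and without any 1 library. Without pairs within 3 fragment numbers the second had a log2 fold change of 0.27 and did not pass (edgeR adjusted p = 0.114). They did not pass with TMM or DESeq2, which moved the median of all windows to -0.20 and -0.17 and gave 0 higher and 4 or 2 lower windows, while the direction of both stayed above 0. Further windows downstream did not pass.

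With TEAp and Eα as baits, the same deletion was assayed in 3 libraries per genotype each, and the difference between genotypes was compared between baits for 5 segments (10 tests). The proximal V region held 35.6 ± 2.24% (SD, n = 3) of region fragments in WT and 40.2 ± 0.305% in EACBE-/- cells with the Trav17 bait. From Eα it held 24.4 ± 1.82% and 16.2 ± 1.77%, and from TEAp 27.3 ± 1.02% and 21.8 ± 0.804%. The change was thus 4.59 percentage points from Trav17, which lies beside this region, -8.16 from Eα and -5.50 from TEAp. These differ by 12.7 and 10.1 percentage points (exact two-sided permutation of genotype within each bait, p = 0.005, the smallest it can give, 0.025 adjusted). The rise from Trav17 depends on the scale of region fragments. Over all chromosome 14 reads only the near V segment was higher from this bait. The middle and far V segments then changed by -0.055 and -0.48 percentage points.

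For the downstream flank all 3 baits had higher shares in EACBE-/- libraries: by 2.79 percentage points from Trav17, 8.24 from Eα and 7.67 from TEAp. The differences between baits had exact permutation p = 0.125 and 0.145 (0.3 adjusted). This test regroups genotypes within each bait. When both baits change in the same direction, regroupings with opposite signs differ more, so it cannot give a small p. The change from Trav17 minus that from Eα was -5.45 percentage points, and minus that from TEAp -4.88. With 1 library left out these ranged from -5.85 to -5.03 and from -5.04 to -4.65. INTs were lower by 0.978, 2.16 and 2.45 percentage points from Trav17, Eα and TEAp, with exact permutation p = 0.3 and 0.31 for the differences between baits. Mean shares of the Tcrd segments and the proximal J segments were also lower from all 3 baits, with exact permutation p-values from 0.15 to 0.675. The shared direction limits these tests in the same way, so they do not show whether the baits change alike.

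**Figure D5:**
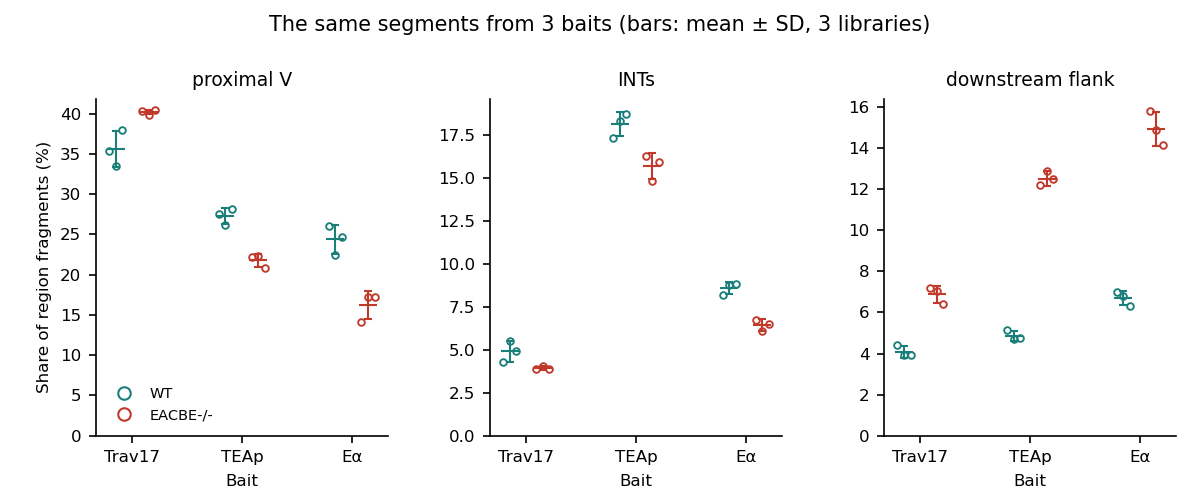
Share of region fragments (y axis, %) in the proximal V region, the INTs and the downstream flank with the Trav17, TEAp and Eα baits (x axis). Circles are libraries and bars are mean ± SD over 3 libraries of WT or EACBE-/- cells. The proximal V share is higher in EACBE-/- cells from Trav17 and lower from TEAp and Eα, and the downstream flank is higher from all 3 baits.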

How the data were processed

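The authors trimmed and merged the reads, aligned them to mm10 with Bowtie2 2.4.5, and kept the first 2 fragments that follow the bait. The deposited counts hold raw numbers of reads for each pair of 5 kb bins, and the deposited reads name the fragments. Reads binned here by the end of each MboI fragment gave the deposited counts exactly in all 6 libraries. The signal scaled by the authors was not used. Genes and sequences are from RefSeq (GRCm38.p6).

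Bins, bin pairs and 100 kb windows with at least 10 counts were fitted with edgeR 4.0.16 (quasi-likelihood, R 4.3.3), with the region total as library size, or the chromosome 14 total for windows. Features passed at a Benjamini-Hochberg adjusted p under 0.05. SE is the absolute log2 fold change over the square root of F. Scripts were tested on simulated data. Alternatives included TMM, DESeq2 1.42.0, distinct pairs, 10 kb bins and a replicate block. INT, TEAp and Eα windows are inferred from drawings. Members, segments and lists were chosen with earlier results of these data known. The bins named are those of listed elements and, per fit, up to 5 with the largest change among those past the threshold without overlap of groups, and where fewer pass, those with the smallest p. Python 3.11.15 was used.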

Additional observations from a re-analysis of the deposited data

Results flagged for a closer look

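The genotype difference of the proximal V share differed between baits. It was 12.7 percentage points higher from Trav17 than from Eα, and 10.1 higher than from TEAp, by an exact permutation of the genotype labels within each bait (p = 0.005 for both, 0.025 adjusted over 10 comparisons). As shares of region fragments, all 3 EACBE-/- libraries were above every WT library from Trav17, and all 3 were below every WT library from Eα and from TEAp. Over all chromosome 14 reads the rise from Trav17 was in the near V segment alone. The middle and far V segments were at -0.055 and -0.48 percentage points. Over distinct pairs, the chromosome 14 scale and each library left out, the first difference ranged from 5.22 to 13.9 percentage points and the second from 4.80 to 11.3, with exact permutation p-values of at most 0.025. The bait lies beside this region, and shares within a library sum to a whole, so part of a share can move because another segment does. Their part in the result was not tested.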

How the results depend on the processing

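No called bin changed direction in any of the 17 alternatives at 5 kb. The count of 22 called bins was 14 with distinct pairs, with or without the missing fragment, 14 without pairs inside a single bin, 16 without pairs within 3 fragment numbers, and 7 to 16 when 1 library was left out (7 without WT replicate 2 or EACBE-/- replicate 1, 9 without EACBE-/- replicate 2, 13 without WT replicate 1 or EACBE-/- replicate 3). Of the 21 named bins 8 passed, 4 did without pairs inside a single bin and without pairs within 3 fragment numbers, and 3 to 6 with 1 library left out. The single called bin pair was lost (0 called) with TMM, the chromosome 14 library size, the replicate block, distinct pairs, 10 kb bins, and without pairs in a single bin or within 3 fragment numbers. DESeq2 called 2, leaving out 1 library 0 to 2, and an unadjusted p under 0.001 gave 4. DESeq2 called 2 windows in place of 4. The cause of each loss was not tested, apart from fewer libraries or reads where these were left out.

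Some shares changed sign, and of these the middle V segment (0.87 percentage points) was the one whose groups did not overlap with all reads. The upstream flank (0.10 percentage points) went to -0.0128 with distinct pairs, -0.10 without the missing fragment as well, -0.91 over chromosome 14 reads, and -0.18 to 0.40 with 1 library left out. For the middle V segment these values were -0.0407, -0.0745 and -0.055. For the far V segment they were -0.0579, -0.0742 and -0.48, with -0.00059 without the missing fragment and -0.18 to 0.17 with 1 library left out. Pairs of proximal J with Eα went to 0.019 without the missing fragment and ranged from -0.069 to 0.0063 over libraries, pairs of INTs with proximal J from -0.27 to 0.014, pairs of V with Tcrd segments from -0.38 to 0.10, and reads with 1 fragment in the region from -0.37 to 0.90. Pairs in a single bin went to -0.30 over chromosome 14 reads and -0.16 without pairs within 3 fragment numbers. The TEAp–INT log2 ratio ranged from -0.49 to 0.66, and the proximal J difference between the Trav17 and TEAp baits went to 0.039 over chromosome 14 reads.

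Same-numbered libraries deviated together with correlations of -0.20, 0.01 and -0.06 over 107 bins, and differently numbered ones with -0.19 to 0.30. No pairing by number was seen, but with 3 libraries a group and this spread it is not settled. The replicate block kept 22 called bins, 21 of them shared, and 4 windows.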

Other observations

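The window chr14:53600001-53700000, 1 of the 770 tested, lies upstream of the region among the Trav genes. It held 26.9, 20.3 and 25.9 of every 1000 chromosome 14 reads in WT and 31.1, 32.2 and 30.6 in EACBE-/- libraries. The groups did not overlap, and the log2 fold change was 0.36 ± 0.11 (edgeR adjusted p = 0.202). With distinct pairs it passed (log2 fold change 0.36, adjusted p = 0.00106).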
